A study of Mus musculus with 6 samples.

Results

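The Notch receptors *Notch1*, *Notch2* and *Notch3*, the ligands *Jag1*, *Jag2* and *Dll1*, and the target genes *Hes1*, *Hey1*, *Hey2* and *Heyl* were read out of the RNA-seq of mouse aortic vascular smooth muscle cells (VSMCs). Members were taken by gene symbol, and 9 of the 10 have a row among the 18112 genes of the expression table, while *Heyl* was not analysed here. The comparison asks how RNA levels in these cells differ without the lysine methyltransferase SMYD2. Primary VSMCs were isolated by collagenase from the aortic media of C57BL/6 mice, 3 samples from *Smyd2* fl/fl mice (control) and 3 from *Smyd2* SMC-/- mice (knockout). Both groups are homozygous for a *Smyd2* allele whose second exon is flanked by loxP sites, and *Smyd2* SMC-/- mice also carry a *Tagln*-Cre (SM22α-Cre) transgene. This Cre acts in cells that have used the *Tagln* promoter, and *Tagln* is known to be used in some cells other than smooth muscle as well. The study's methods describe young adult mice, *Smyd2* fl/fl littermates as controls, and cohorts balanced for sex. The sample labels give cells at passage 6 in medium with 10% serum, whereas the study's methods give an earlier passage and overnight starvation. Nothing in the labels says that the 3 samples of a group came from separate mice, so p-values measure the spread between these samples only.

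Notch receptors are single-pass membrane proteins that are activated by ligands of the Jagged and Delta-like families on a neighbouring cell. Ligand binding lets an ADAM protease and then the gamma-secretase complex cut the receptor, and the freed intracellular domain joins the DNA-binding protein RBPJ and a Mastermind coactivator to switch on genes such as those of the Hes and Hey repressors. In arteries, *Notch3* is the receptor best known for smooth muscle, JAG1 on endothelial and smooth muscle cells is a ligand for it, and Notch signalling is known to act on contractile genes such as *Acta2*.

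Levels are FPKM, fragment numbers corrected for the length of the transcript and the size of the library. The steps between low FPKM values put the depth at about 18450000, 19950000 and 19850000 fragments in control replicates 1, 2 and 3, and at about 17400000, 19450000 and 19200000 in knockout replicates 1, 2 and 3. The replicate 1 library stood apart from the other 2 in both groups, on a first principal component with 50.2% of the variance. Replicates 2 and 3 alone were therefore compared as well. That comparison has 2 samples a group and was chosen on these same data for their likeness, so its p-values can be too low. *Smyd2* itself stood at 7.87, 3.10 and 3.0 FPKM in control cells and at 1.67, 0.40 and 0.80 FPKM in knockout cells. Every knockout library lay below every control library (4.66 ± 2.78 against 0.957 ± 0.649 FPKM, mean ± SD, n = 3, two-sided exact permutation p = 0.1, the smallest that 3 against 3 can give), and fragments from the exons that are not deleted, and from an antisense gene that overlaps *Smyd2*, can count towards these values. Across all genes, limma put the difference of *Smyd2* at -1.48 on the log2(FPKM + 1) scale with an adjusted p of 0.105, or 0.0189 with the replicate number as a block. Neither the labels nor the study's methods say that samples of the same number belong together, so this block is an alternative only.

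Smooth muscle marker genes were unevenly present. *Acta2*, which encodes smooth muscle alpha-actin, was the most abundant of the 10 markers in each control library and second to *Cald1* in each knockout library, and *Tagln* ranged from 12.46 to 87.30 FPKM. *Myh11*, which encodes the smooth muscle myosin heavy chain, the coactivator gene *Myocd*, *Des* and *Itga8* lay under 1 FPKM in all 6 libraries. Of 9 endothelial markers, *Pecam1*, *Cdh5*, *Tek*, *Tie1*, *Vwf*, *Erg* and *Emcn* lay under 1 FPKM in all 6 libraries. All 7 markers of adventitial fibroblasts exceeded 1 FPKM in at least 1 library, with *Dcn* the highest by its mean over the 6 libraries, although *Ly6a* or *Dpt* exceeded it in 4 of them. The labelled cell type thus had actin and cytoskeletal markers but little RNA of several defining ones.

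*Notch3* rose in knockout cells, while *Notch2* was the most abundant receptor and overlapped between the genotypes. *Notch3*, listed under NCBI Gene number 18131, stood at 0.65, 1.34 and 1.27 FPKM in control replicates 1, 2 and 3. In knockout replicates 1, 2 and 3 it stood at 3.25, 3.17 and 3.35 FPKM. The groups did not overlap, and the mean was 3.0 times as high in knockout cells (3.26 ± 0.0902 FPKM) as in control cells (1.09 ± 0.380 FPKM, SD, n = 3). The estimated number of *Notch3* fragments ran from 95 to 212 in control libraries and from 449 to 511 in knockout libraries. The log2 fold change was 1.05 (standard error 0.192, 95% confidence interval 0.59 to 1.51) with an adjusted p of 0.0489 from limma. On this log2(FPKM + 1) scale the changes of genes with low FPKM are understated. The adjusted p sits at the edge of the threshold of 0.05: it was between 0.0527 and 0.211 when any 1 of the 6 libraries was left out, 0.0504 after quantile normalization, 0.0404 after rescaling to TPM and 0.00340 in replicates 2 and 3 alone, with *Notch3* higher in knockout cells each time. It was 0.05 or more in 9 of 13 alternatives. As the groups did not overlap, leaving out libraries could not turn the direction of *Notch3*. The log2 fold change itself was 0.88 to 1.14 without a single library and 1.01 after quantile normalization.

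**Figure D1:**
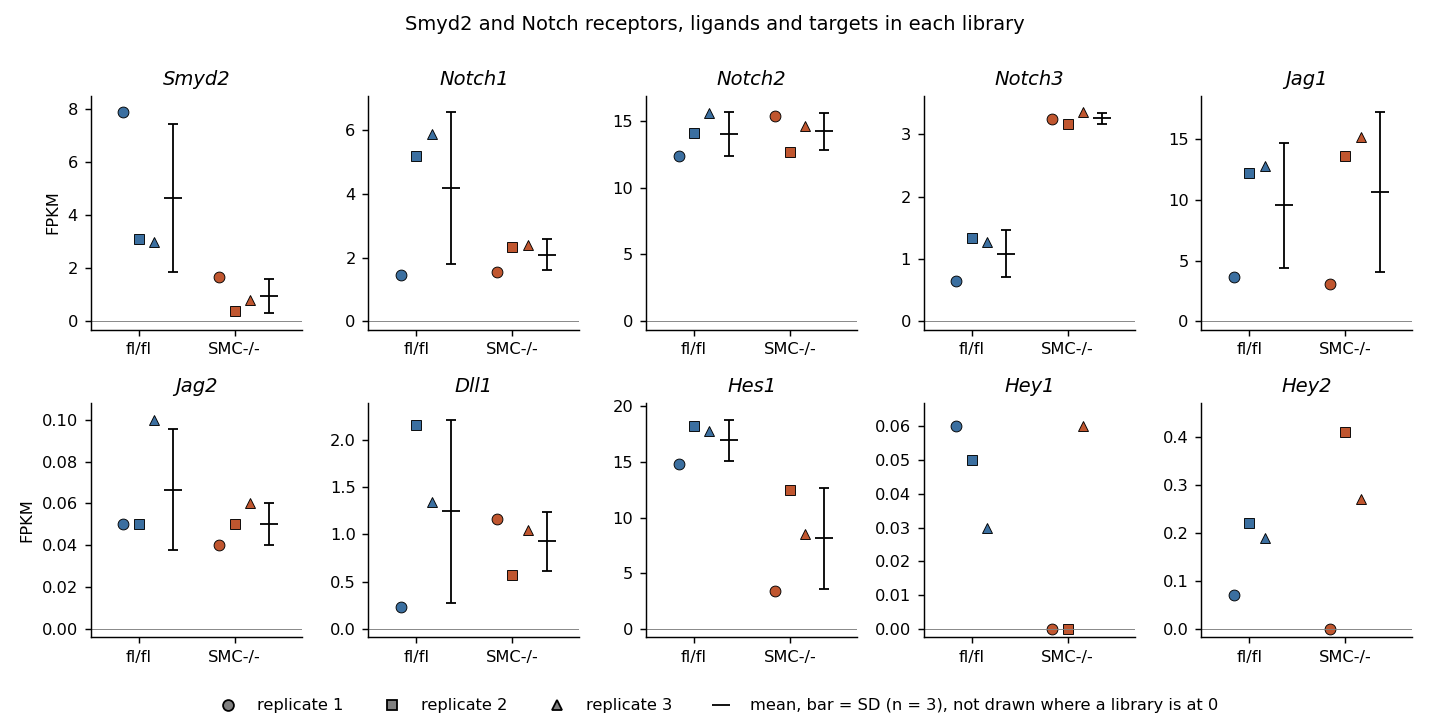
FPKM (y axis, from 0, a separate scale for each gene) of *Smyd2* and of the 9 Notch receptors, ligands and targets with a row, in 3 *Smyd2* fl/fl and 3 *Smyd2* SMC-/- libraries. Symbols mark replicates 1, 2 and 3, and the bar is the mean with its SD, left out where a library is at 0. All *Smyd2* SMC-/- points lie above all *Smyd2* fl/fl points for *Notch3* and below them for *Hes1*.

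The promoter window of *Notch3* is printed because *Notch3* is the member that passed the test. It is the RefSeq window from 250 bases before to 50 bases after the start of the gene, chr17:32166841-32167140 on the minus strand of GRCm38.p6, with the transcribed bases in capitals.
Notch3: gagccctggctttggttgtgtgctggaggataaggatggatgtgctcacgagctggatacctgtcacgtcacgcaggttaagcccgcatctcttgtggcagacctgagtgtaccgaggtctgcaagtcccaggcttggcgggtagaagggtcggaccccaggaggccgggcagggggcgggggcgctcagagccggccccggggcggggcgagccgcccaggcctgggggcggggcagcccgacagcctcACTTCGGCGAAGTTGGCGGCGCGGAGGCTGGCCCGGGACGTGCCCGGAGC
*Notch3* as a whole spans positions 32120820 to 32166852 of chromosome 17 in the GENCODE annotation of GRCm38, where an antisense gene, *Gm17276*, overlaps it. The RefSeq window puts the start of the gene further upstream than this span, so that part of the capitals lies outside it. The counting is not stated to use strand, so fragments of the pair cannot be told apart. The genome build of the authors' table is not given in the sources used here.

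*Notch1*, a receptor expressed in many cell types, spans positions 26457903 to 26516663 of chromosome 2, where 2 genes of the opposite strand overlap it. It stood at 1.47, 5.21 and 5.89 FPKM in control cells and at 1.54, 2.35 and 2.39 FPKM in knockout cells. The replicate 1 libraries of both groups were alike and low, and the other 2 pairs differed. Over all 6 libraries the difference did not pass the test (log2 fold change -0.62, 95% confidence interval -1.60 to 0.35, adjusted p = 0.457 from limma). In replicates 2 and 3 alone *Notch1* was lower in knockout cells by limma, with a log2 fold change of -0.96 and an adjusted p of 0.00210 (0.00210 to 0.756 over the alternatives). *Notch2* stood at 12.36, 14.09 and 15.60 FPKM in control cells and at 15.34, 12.70 and 14.58 FPKM in knockout cells. All knockout values lay within the range of the control values, with a log2 fold change of 0.02 and a 95% confidence interval of -0.32 to 0.36 (adjusted p = 0.960 from limma), and in replicates 2 and 3 alone the sign turned (-0.12).

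Because FPKM is scaled by length, the receptors can be set against each other within a library. *Notch3* made up 4.49%, 6.49% and 5.58% of the summed receptor FPKM in control replicates 1, 2 and 3. In knockout replicates 1, 2 and 3 its share was 16.1%, 17.4% and 16.5%. The share was 11.2 percentage points higher in knockout cells (5.52% ± 1.00 against 16.7% ± 0.648, SD, n = 3) without overlap, at the smallest p the design allows (two-sided exact permutation p = 0.1, or 0.3 after Benjamini-Hochberg adjustment over the 3 shares tested), so that 3 samples a group cannot carry it past 0.05. *Notch2* held the largest share in all 6 libraries, 74.1% ± 9.79 in control cells and 72.6% ± 3.32 in knockout cells (SD, n = 3). The share of *Notch1* was 20.4% ± 8.90 and 10.8% ± 2.76, and *Notch1* therefore ranked above *Notch3* in all 3 control libraries and below it in all 3 knockout libraries.

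**Figure D2:**
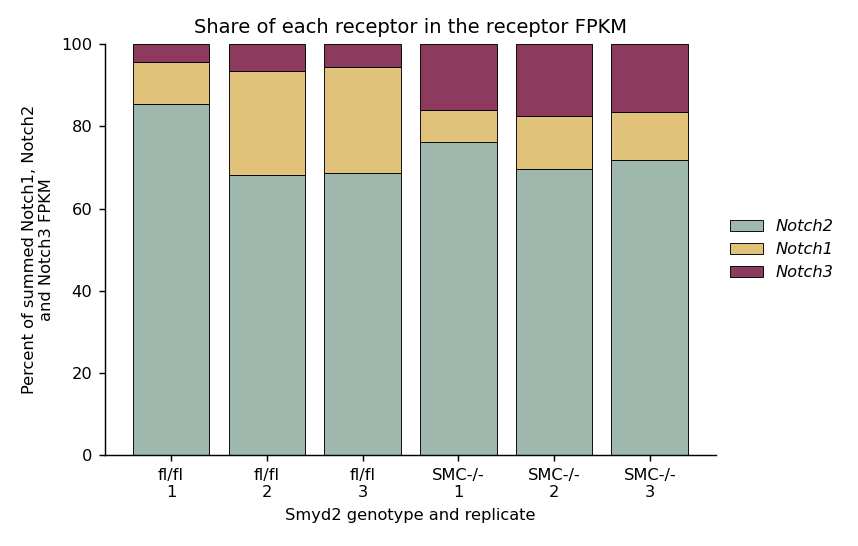
Share of *Notch2*, *Notch1* and *Notch3* in their summed FPKM (stacked bars, y axis in percent from 0 to 100) in each of the 6 libraries. The *Notch3* segment is 4.49% to 6.49% of the bar in *Smyd2* fl/fl and 16.1% to 17.4% in *Smyd2* SMC-/-.

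Among the ligands, *Jag1* was the most abundant in all 6 libraries and varied between replicates more than between genotypes. It stood at 3.64, 12.20 and 12.81 FPKM in control cells and at 3.11, 13.64 and 15.19 FPKM in knockout cells. Both replicate 1 libraries were low, and replicates 2 and 3 averaged 3.44 times replicate 1 in control cells and 4.64 times in knockout cells. The log2 fold change between genotypes was 0.07 with a wide 95% confidence interval of -1.49 to 1.62 (adjusted p = 0.969 from limma), and its sign changed with the library left out (-0.45 to 0.70). *Dll1*, a Delta-like ligand, stood at 0.23, 2.16 and 1.34 FPKM in control cells and at 1.16, 0.57 and 1.05 FPKM in knockout cells. The lowest and the highest of its 6 values both belong to control cells, and the groups overlap (log2 fold change -0.13, 95% confidence interval -1.0 to 0.74, adjusted p = 0.891 from limma). In replicates 2 and 3 alone its log2 fold change was -0.60 (95% confidence interval -1.07 to -0.13 before adjustment), and it did not pass there (adjusted p = 0.0606). A long non-coding RNA gene, *A930024N18Rik*, overlaps *Dll1* on the opposite strand, so these values may include its fragments. *Jag2* lay between 0.04 and 0.10 FPKM in every library, at an estimated 4 to 10 fragments, and was below the mean of 0.5 FPKM that a gene needed to enter the main fit (adjusted p = 0.747 from limma with no filter). *Jag1* accounted for 89.1% ± 4.15 of the ligand FPKM in control cells and 87.0% ± 12.9 in knockout cells (SD, n = 3, two-sided exact permutation p = 1), a difference of -2.14 percentage points over all libraries that became 7.14 in replicates 2 and 3 alone.

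Of the target genes, *Hes1* alone was clearly expressed, and each knockout library held less of it than any control library. *Hes1*, a transcriptional repressor that Notch switches on in many tissues, lies on chromosome 16 at positions 30064384 to 30067796, with no other annotated gene over it. It stood at 14.85, 18.24 and 17.76 FPKM in control cells. In knockout replicates 1, 2 and 3 it stood at 3.37, 12.48 and 8.56 FPKM. The groups did not overlap, the knockout libraries were the more scattered (8.14 ± 4.57 against 17.0 ± 1.83 FPKM, SD, n = 3), and the estimated fragments ran from 82 to 338 and from 382 to 507. Over all 6 libraries the difference did not pass the test (log2 fold change -1.11, standard error 0.397, 95% confidence interval -2.07 to -0.16 before adjustment, adjusted p = 0.190 from limma). It passed in replicates 2 and 3 alone, with a log2 fold change of -0.74 and an adjusted p of 0.0141 from limma, and with a block for replicate 1 against the others, with an adjusted p of 0.0303. It did not pass with the replicate number as a block (adjusted p = 0.0617, and 0.0141 to 0.388 over the alternatives).

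*Hey1* and *Hey2*, repressors of the same family that mark Notch activity in vessels, were near the limit of detection and fell below the filter of the main fit. *Hey1* was listed at 0.06, 0.05 and 0.03 FPKM in control cells and at 0, 0 and 0.06 FPKM in knockout cells, an estimated 0 to 3 fragments a library. *Hey2* was listed at 0.07, 0.22 and 0.19 FPKM in control cells and at 0, 0.41 and 0.27 FPKM in knockout cells, an estimated 0 to 20 fragments. A difference between the genotypes was not detectable for either gene at this depth, and neither passed in the fit with no filter (adjusted p = 0.629 for *Hey1* and 0.835 for *Hey2* from limma). *Hes1* made up 98.8% ± 0.297 of the summed *Hes1*, *Hey1* and *Hey2* FPKM in control cells and 97.7% ± 2.01 in knockout cells (SD, n = 3, two-sided exact permutation p = 0.4, or 0.6 adjusted over the 3 shares).

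Of the members, 6 were tested, of which 1 (*Notch3*) was called higher and 0 lower in knockout cells by limma at an adjusted p under 0.05, beside 1.23% and 1.21% of the 12565 genes tested. At an unadjusted p under 0.05, 1 of the 6 tested members was higher and 1 (*Hes1*) lower, beside 9.16% and 11.2% of all genes tested. With the replicate block the members' counts were 1 higher and 0 lower, beside 4.72% and 5.72% of all genes. In replicates 2 and 3 alone, 1 member (*Notch3*) was higher and 2 (*Notch1* and *Hes1*) were lower, beside 11.9% and 17.2% of all genes. Groups did not overlap for 1 member that was higher and 1 that was lower, beside 13.1% and 15.0% of all genes tested, so that a share of this size is common across the table. The median log2 fold change of the 6 tested members was -0.05, against -0.02 over all genes tested. In replicates 2 and 3 alone these medians were -0.36 and -0.06. Rescaling each library to TPM moved the median of all genes by 0.113 and the calls from 154 higher and 152 lower to 247 and 99, with every tested member keeping the sign of its fold change.

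**Figure D3:**
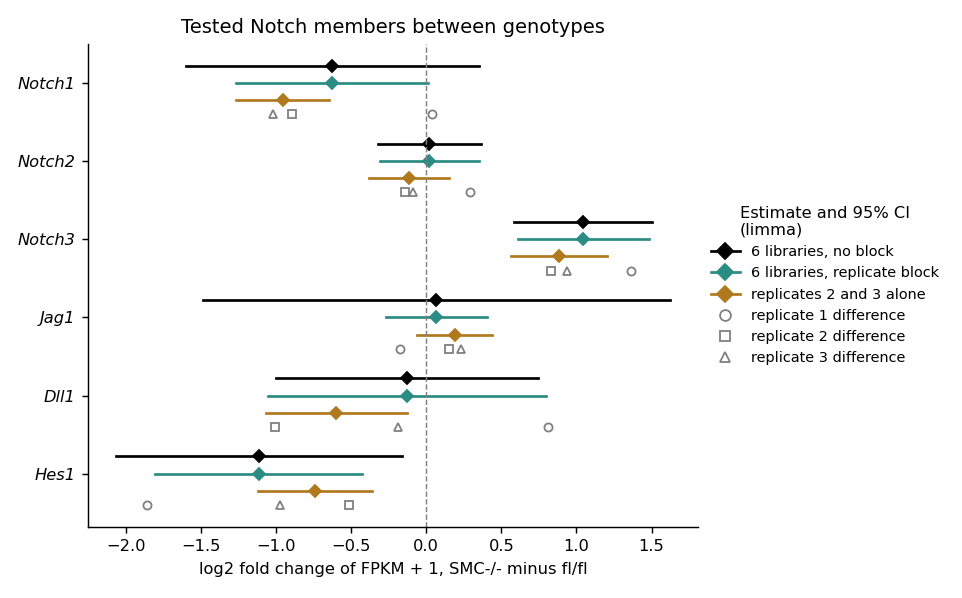
Log2 fold change of FPKM + 1 (x axis, *Smyd2* SMC-/- minus *Smyd2* fl/fl) of the 6 tested members, with 95% confidence intervals from limma that are not adjusted for the number of genes. Colours mark the fit to 6 libraries, the fit with the replicate block and the fit to replicates 2 and 3, and open symbols the difference of each same-numbered pair. The interval of *Notch3* lies above 0 in all 3 fits, and that of *Jag1* narrows from -1.49 to 1.62 in the fit to 6 libraries to -0.27 to 0.40 with the block.

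Promoter windows of 300 bases were found for 7 of the 10 members, 8 windows in all. They were searched on both strands for TGGGAA, the core of the sequence that RBPJ is known to bind. The word was found in 1 of the 8 windows, that of *Hey2*, whereas 25.6% of 32851 RefSeq promoter windows of the same length hold it. The *Hey2* window holds 2 matches, and 3.79% of all windows hold 2 or more, with 1 starting at base -207 on the minus strand of the promoter and 1 at base -3 on its plus strand. It is shown, chr10:30842734-30843033 on the minus strand of GRCm38.p6, with both matches in capitals, the first as its reverse complement.
Hey2: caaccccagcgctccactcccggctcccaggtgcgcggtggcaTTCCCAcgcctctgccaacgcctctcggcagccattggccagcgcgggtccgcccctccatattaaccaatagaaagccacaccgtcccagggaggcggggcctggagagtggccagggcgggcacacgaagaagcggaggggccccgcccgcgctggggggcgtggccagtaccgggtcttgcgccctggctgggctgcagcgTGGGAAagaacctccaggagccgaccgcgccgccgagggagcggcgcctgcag
A match describes these letters only, and *Hey2* RNA was near 0 in the libraries.

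Beyond the members, 57 other genes of the Notch pathway were listed, of which 55 have a row and 44 were tested. Of these, 1 (*Dlk1*) was called higher and 0 lower in knockout cells by limma, beside 1.23% and 1.21% of all genes tested, against 8 higher and 1 lower at an unadjusted p under 0.05, a threshold that 9.16% and 11.2% of all genes tested pass in these directions. Their median log2 fold change was 0.07. *Dlk1* encodes a membrane protein related to the Delta ligands that lacks their receptor-activating domain and is best known from preadipocytes. It stood at 1.41, 1.58 and 1.94 FPKM in control cells and at 8.98, 25.69 and 21.78 FPKM in knockout cells. Every knockout library exceeded every control library, and the ratio of the means was 11.5 (log2 fold change 2.79, standard error 0.370, adjusted p of 0.0201 from limma). Leaving out any library but knockout replicate 1 moved the adjusted p to between 0.0506 and 0.108, at a log2 fold change of at least 2.52. The promoter window of *Dlk1*, chr12:109452573-109452872 on the plus strand of GRCm38.p6, holds no TGGGAA and is shown as that of the pathway gene with the largest fold change, with the transcribed bases in capitals.
Dlk1: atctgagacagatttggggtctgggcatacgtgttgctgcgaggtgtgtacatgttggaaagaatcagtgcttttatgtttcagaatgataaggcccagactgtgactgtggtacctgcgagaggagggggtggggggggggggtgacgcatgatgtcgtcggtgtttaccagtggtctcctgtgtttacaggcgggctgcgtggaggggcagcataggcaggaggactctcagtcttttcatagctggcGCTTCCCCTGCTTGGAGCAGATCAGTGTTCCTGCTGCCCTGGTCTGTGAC

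**Figure D4:**
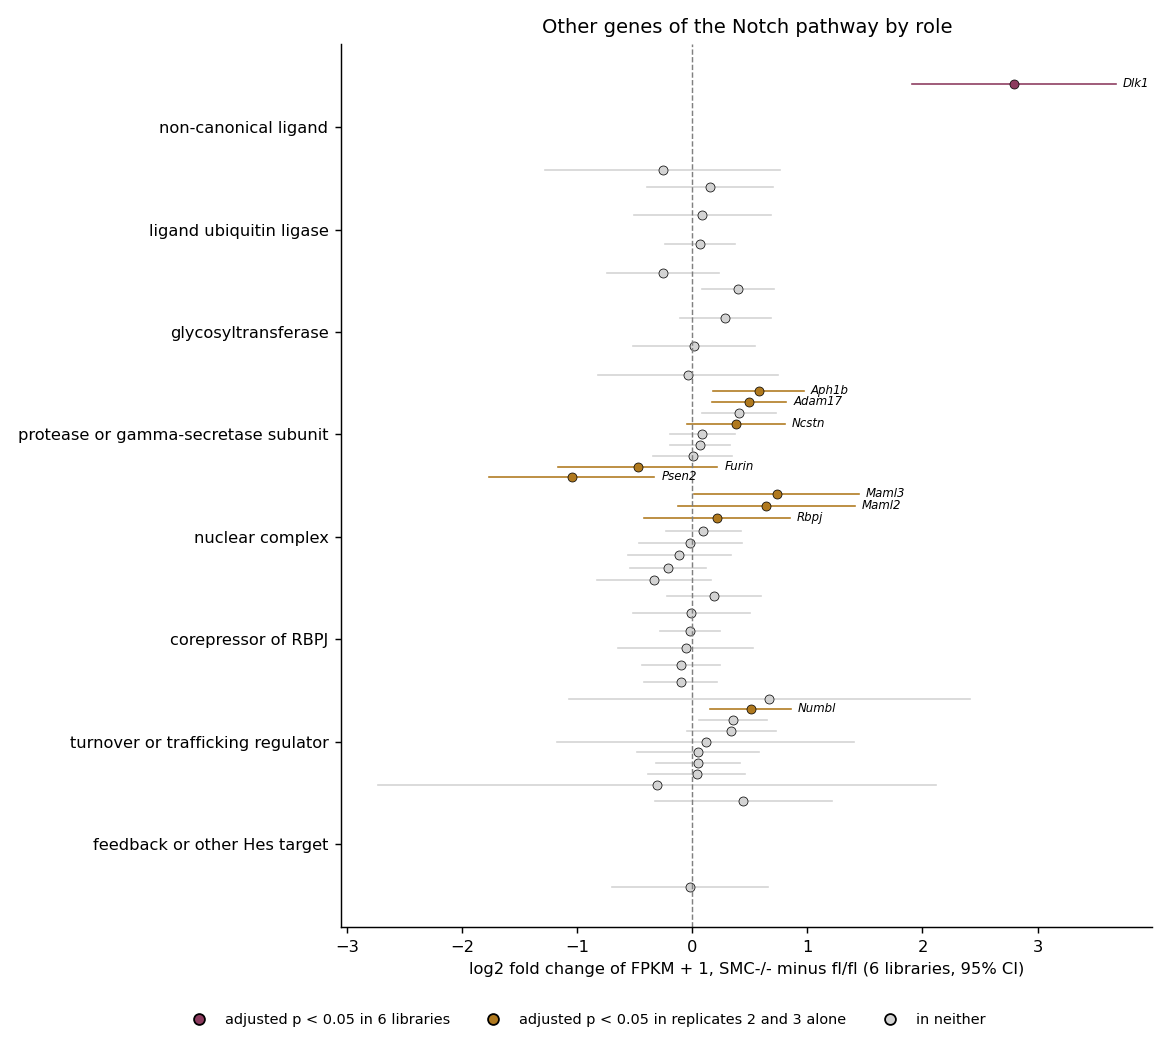
Log2 fold change of FPKM + 1 (x axis, *Smyd2* SMC-/- minus *Smyd2* fl/fl, 6 libraries) of the 44 other pathway genes tested, grouped by role on the y axis. Points are limma estimates and lines their 95% confidence intervals, not adjusted for the number of genes. *Dlk1*, at 2.79, stands apart, and *Psen2*, at -1.05, is the lowest estimate.

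With the replicate number as a block, *Psen2* was called as well, so that 1 gene of the list was higher and 1 lower, beside 4.72% and 5.72% of all genes. *Psen2* encodes presenilin 2, a catalytic subunit of gamma-secretase. It stood at 32.32, 29.28 and 26.36 FPKM in control cells and at 22.63, 9.75 and 11.24 FPKM in knockout cells. Every knockout library lay below every control library, at a log2 fold change of -1.05 and an adjusted p from limma of 0.125 without the block and 0.0433 with it. In replicates 2 and 3 alone, 8 genes of the list were higher (*Dlk1*, *Adam17*, *Ncstn*, *Aph1b*, *Rbpj*, *Maml2*, *Maml3* and *Numbl*) and 2 lower (*Psen2* and *Furin*). These counts stand beside the 11.9% and 17.2% of all genes given above. The genes include the receptor protease *Adam17*, the gamma-secretase subunit *Aph1b*, the coactivators *Maml2* and *Maml3*, the Notch antagonist *Numbl* and the protease *Furin*, which were picked out after their values were seen. Over all 6 libraries, groups did not overlap for 9 of the list that were higher and 1 that was lower, beside 13.1% and 15.0% of all genes tested.

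The tested gene with the highest mean FPKM over the 6 libraries in each role did not pass the test over 6 libraries, apart from *Dlk1*. *Ncstn* encodes nicastrin, the gamma-secretase subunit that binds substrates, and had the highest such mean among protease and gamma-secretase genes, although *Psenen* exceeded it in 4 of the 6 libraries. It stood at 57.25, 71.25 and 69.06 FPKM in control cells and at 68.56, 95.14 and 96.15 FPKM in knockout cells. Its log2 fold change of 0.38 did not pass over 6 libraries (adjusted p = 0.291 from limma) and passed in replicates 2 and 3 alone (adjusted p = 0.0149, from 0.0149 to 0.631 over the alternatives). *Rbpj*, the DNA-binding partner of the receptors, stood at 100.86, 54.59 and 53.27 FPKM in control cells and at 75.78, 68.95 and 87.93 FPKM in knockout cells. The highest of its values came from control replicate 1, and the adjusted p from limma was 0.719 over 6 libraries and 0.0228 in replicates 2 and 3 alone (0.0228 to 0.949 over the alternatives). *Mib1*, a ubiquitin ligase that activates ligands, lay between 11.79 and 14.19 FPKM over the 6 libraries. *Rfng*, a fringe glycosyltransferase that modifies the receptors, lay between 17.51 and 33.93 FPKM, highest in both replicate 1 libraries, and *Poglut1* exceeded it in 3 libraries. *Ctbp1*, a corepressor, lay between 52.79 and 58.03 FPKM, and *Nedd4*, a ubiquitin ligase, was the most abundant gene of the list at 311.27 to 425.64 FPKM. *Hes6*, a relative of *Hes1*, stood at 39.62 FPKM in knockout replicate 1 and between 15.5 and 17.56 FPKM in the other 5 libraries (adjusted p = 0.508 from limma). *Notch4*, the receptor of endothelial cells, lay at 0.05 to 0.30 FPKM, below the filter.

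Of 3 genes known as Notch targets in smooth muscle, 2 were tested and 1 was called lower, beside 1.21% of all genes tested. *Acta2* was lower in knockout cells, at 200.95, 267.89 and 262.1 FPKM against 761.48, 682.39 and 682.96 FPKM in control cells. Every knockout library lay below every control library, with a log2 fold change of -1.55 and an adjusted p of 0.00803 from limma. The adjusted p from limma was 0.0541 without control replicate 2, 0.0615 without control replicate 3 and 0.0533 without knockout replicate 3. The log2 fold change in these fits was -1.57, -1.57 and -1.61. *Pdgfrb*, a growth factor receptor of mural cells, lay between 118.36 and 203.15 FPKM in control cells and between 86.77 and 261.16 FPKM in knockout cells, highest in both replicate 1 libraries (adjusted p = 0.945 from limma). *Myh11* lay between 0.01 and 0.22 FPKM, below the filter.

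Beside the Notch genes, 1 smooth muscle marker and 1 fibroblast marker were called lower in knockout cells, beside 1.21% of all genes tested. With the replicate number as a block, 2 smooth muscle markers (*Acta2* and *Cald1*) and 3 fibroblast markers (*Dpt*, *Cd34* and *Ly6a*) were called lower, beside 5.72% of all genes. The counts of markers at an unadjusted p under 0.05 that follow stand beside 9.16% (higher) and 11.2% (lower) of all genes tested. The summed FPKM of the 10 smooth muscle markers was 1419, 1226 and 1242 in control cells and 542, 720 and 692 in knockout cells, with 1 of 6 tested markers (*Acta2*) called lower by limma, and 2 lower at an unadjusted p under 0.05. Every knockout sum lay under every control sum, but without *Acta2* and *Cald1* the sums overlapped (161, 139 and 131 against 62.4, 161 and 115). *Lmod1*, at 3.28, 2.71 and 2.83 against 1.22, 5.44 and 6.02 FPKM, was not called over 6 libraries (adjusted p = 0.817 from limma) and was higher in knockout cells in replicates 2 and 3 alone (adjusted p = 0.00335). That of the 7 adventitial fibroblast markers was 301, 918 and 784 against 81.1, 571 and 516, lower in knockout cells at each replicate number, although the groups overlap. Of these 7 markers 1, *Dpt*, was called lower and 3 were lower at an unadjusted p under 0.05 (*Dpt* 143.88, 90.32 and 65.50 against 3.31, 1.15 and 0.63 FPKM, adjusted p = 0.00417 from limma). The estimates of *Lum* and *Dcn* were above 0. *Lum* was listed at 0, 1.31 and 1.17 FPKM in control cells and at 0.26, 14.51 and 10.39 FPKM in knockout cells (adjusted p from limma of 0.342 over 6 libraries and 7.4e-05 in replicates 2 and 3 alone). In that smaller fit *Lum* was the only fibroblast marker called higher, and 5 of the 7 (*Pdgfra*, *Dpt*, *Pi16*, *Cd34* and *Ly6a*) were called lower, beside 11.9% and 17.2% of all genes. *Dcn* stood at 13.88, 311 and 256.65 against 25.59, 382.86 and 350.45 FPKM, higher in knockout cells at each replicate number (adjusted p = 0.890 from limma). The summed FPKM of the 9 endothelial markers was 171, 86.2 and 90.0 against 96.1, 75.4 and 74.4, nearly all of it from *Eng*, with 0 of 2 tested markers called by limma and 1 (*Kdr*) higher at an unadjusted p under 0.05. *Kdr* was called higher in replicates 2 and 3 alone (adjusted p = 0.00260), whereas *Pecam1*, below the filter, was lower in every knockout library than in any control library (0.56, 0.88 and 0.92 against 0.12, 0.18 and 0 FPKM, adjusted p = 0.0595 from limma with no filter). The 6 macrophage markers summed to 42.6, 30.0 and 26.7 against 40.9, 18.3 and 22.7 FPKM, led by *Cd14*, with *Ptprc* and *Adgre1* under 1 FPKM throughout. The 4 pericyte markers summed to 208, 127 and 131 against 264, 96.1 and 112 FPKM, led by *Pdgfrb*, with *Abcc9* under 1 FPKM throughout. Of the macrophage and the pericyte markers 0 were called, and 1 of each (*Csf1r* and *Cspg4*) was higher at an unadjusted p under 0.05. The other tested markers of both lists had log2 fold changes below 0, with *Rgs5* at -1.30 and *Lyz2* at -0.64. In replicates 2 and 3 alone *Csf1r* and *Cspg4* were called higher and *Lyz2* lower. No marker with a row was at 0 in all 6 libraries, and *Cldn5* of the endothelial list and *Kcnj8* of the pericyte list have no row. In bulk RNA, fewer cells of a type and less RNA per cell cannot be told apart, and the part of these markers in the Notch values was not tested.

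Other genes shared the pattern of the most abundant receptor, ligand and target over the 6 libraries, by the correlation of log2(FPKM + 1) among 8555 genes that averaged 5 FPKM or more. For *Notch2* the closest were *Lyst* (Pearson's r = 0.977), *Pi4kb* (0.958) and *Fut10* (0.953). For *Jag1* they were *Gbp3* (0.998), *Trim34a* (0.997) and *Oasl2* (0.997), and 179 genes exceeded an r of 0.95. *Oasl2* stood at 1.19 and 0.83 FPKM in the replicate 1 libraries and between 72.9 and 128 FPKM in the other 4, so that this likeness is that of replicate 1 against the rest. For *Hes1* the closest were *Chaf1b* (0.994), *Coro1c* (0.991) and *1810055G02Rik* (0.991), each lowest in knockout replicate 1 as *Hes1* is. These values describe 6 libraries and carry no test.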

How the data were processed

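The study's methods give sequencing of the 6 libraries on the BGISEQ-500 platform, whereas the sample labels name an Illumina TruSeq kit, so the library type is not certain. The authors used SOAPnuke as read filter, HISAT and Bowtie2 as aligners and RSEM to estimate expression (versions not given in the sources used here). They deposited FPKM, rounded to 2 decimals. Here log2(FPKM + 1) of the 12565 genes averaging 0.5 FPKM or more was compared between genotypes by limma 3.58.1 (R 4.3.3) (eBayes with trend and robust settings, tested on simulated data), with p-values adjusted by Benjamini-Hochberg over all genes and called under 0.05. Single values were compared with a two-sided exact permutation test. Deviations from the group means were correlated between libraries of the same number (r = 0.615, 0.460 and 0.527 for replicates 1, 2 and 3), and replicates 2 and 3 also did so across numbers (0.461 and 0.439), so a fit with the replicate number from the labels as a block (1312 genes called against 306) was made as well. Deviations cancel out within a group, so replicate 1 standing apart in both groups can by itself give such correlations. They do not show that samples of the same number belong together, which no label or method states. Other alternatives were a pseudocount of 0.1, no filter, a block for replicate 1, replicates 2 and 3 alone, leaving out each library, rescaling to TPM, quantile normalization, and a fold above 2 with an adjusted p under 0.01. Fragments were estimated from the steps of low FPKM and cover counting error only. At the depths used, 71.7% to 73.6% of these values lay within 0.15 of a whole fragment, where chance gives 30% at a fixed depth. The depths were chosen to make this share as large as possible, so it is no independent check of them. Genes named by rule are the members, *Smyd2*, pathway genes called with or without the block, the most abundant pathway gene of each role, smooth muscle Notch targets, leading markers and, as a description, the 3 genes most correlated with each leading member. Other pathway and marker genes were named after their values were seen. Members and lists were chosen with earlier results of these data known. Promoters are from RefSeq and positions from GENCODE.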

Additional observations from a re-analysis of the deposited data

How the results depend on the processing

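Calls depended on how the replicate 1 libraries were treated and on each library of replicates 2 and 3. The number of genes called fell to 34 or 36 without control replicate 2 or 3. It fell to 55 or 39 without knockout replicate 2 or 3. Without replicate 1 it was 277 (control left out) or 686 (knockout left out). Over all genes 306 were called, against 1312 with the replicate block, 2550 with a block for replicate 1, 3650 in replicates 2 and 3 alone, 53 at a fold above 2 and an adjusted p under 0.01, and 34 to 686 without a single library. Among the members 1 was called, against 2 with the block for replicate 1, 3 in replicates 2 and 3 alone, and 0 with a pseudocount of 0.1, with no filter, after quantile normalization, at the stricter threshold and without any single library (0 to 0). *Notch3* kept its direction under all 13 alternatives for its fold change and lost its call in 9 of them (adjusted p up to 0.211 from limma). Its groups do not overlap, so leaving out libraries, the blocks, the filter and the pseudocount could not turn that direction. Only the rescaling to TPM and the quantile normalization could have done so. Of the other pathway genes 1 was called, against 2 with the replicate block, 9 with the block for replicate 1, 10 in replicates 2 and 3 alone, 0 at the stricter threshold, and 0 to 3 without a single library. *Smyd2* passed with the replicate block (-1.48) and in replicates 2 and 3 alone (-1.35). Among the members, the pathway genes named by the rule and the leading marker of each list, the replicate block changed no call other than those of *Smyd2* and *Psen2*, and among the other markers *Cald1*, *Cd34* and *Ly6a* were called lower with it. The *Notch3* share kept its direction throughout, at 10.6 to 11.6 percentage points without a single library. Its groups do not overlap, so leaving out libraries could not turn it. The *Hes1* share kept its direction as well. The *Jag1* share moved from -2.14 points to 7.14 in replicates 2 and 3 alone and ranged from -6.46 to 5.28 without a single library.

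Among the tested members, the pathway genes named by the rule and the smooth muscle Notch targets, some log2 fold changes near 0 changed sign. In replicates 2 and 3 alone this held for *Notch2* (-0.12) and *Mib1* (-0.00087). After rescaling to TPM it held for *Rfng* (0.085), *Ctbp1* (0.11) and *Pdgfrb* (0.041), and after quantile normalization for the same genes at 0.0090, 0.044 and 0.0044. Without a single library, *Notch2* ranged from -0.062 to 0.10, *Jag1* from -0.45 to 0.70, *Dll1* from -0.51 to 0.17, *Rfng* from -0.30 to 0.26, *Ctbp1* from -0.046 to 0.018, *Nedd4* from -0.057 to 0.12 and *Pdgfrb* from -0.55 to 0.24. Fewer samples are compared when libraries are left out, and for the other changes the cause was not tested. Of 221 fold changes under alternatives, 169 kept their direction and their side of the threshold. Most of these genes were not called over 6 libraries, so for them this means that they stayed uncalled. The blocks and the filter also leave a fold change as it is. For *Notch3*, 4 of 13 alternatives kept both. Other listed genes changed sign as well. Among them were *Dtx4* (0.67 over 6 libraries, -0.28 in replicates 2 and 3 alone) and *Spen* (-0.011, and 0.11 after rescaling to TPM). Depth limits *Jag2*, *Hey1* and *Hey2*, with at most 20 estimated fragments a library.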
